A study of Mus musculus with 20 samples.

Results

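A set of 190 probes, of 42006 on the array, gave a lower signal in footpad skin of adult Tabby mice than of adult wild-type (WT) mice, while no such difference was seen at postnatal days 3 and 5. The members were chosen by their measured values, from the scanner's own log ratios, expressed as log2 of footpad over reference signal and averaged over the 2 arrays of a group. A member had an adult Tabby minus WT difference of at most -1.5, differences above -0.5 at both day 3 and day 5, both adult Tabby arrays below both adult WT arrays, and a processed footpad signal of at least 100 on both adult WT arrays. These 4 conditions left 489, 309, 297 and 190 probes in turn. Z00077373-1, Z00036698-1, Z00020870-1 and Z00062492-1 were set aside by name, and 0 of these 4 met the other conditions. The adult, day 3 and day 5 differences of members are therefore a description and carry no test. The adjusted p-values printed with adult values below come from the arrays that chose the members. They set a difference that the choice required beside its SE and are no evidence for it. Just inside the adult limit lay Z00004808-1, Z00047589-1 and Z00024172-1 at -1.502, -1.503 and -1.511. Just outside it lay Z00075258-1, Z00044992-1 and Z00074238-1 at -1.49996, -1.494 and -1.491.

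Total RNA of microdissected footpad skin was compared between Tabby and WT mice, both of strain C57BL6/J, late in gestation (E17.5), 1, 3 and 5 days after birth (P1, P3, P5) and as adults of 56 days. Each of the 10 groups had 2 arrays, which the labels call biological replicates without giving the number or sex of the animals behind a sample. Footpad RNA carried the dye Cy3 and a common reference carried Cy5 on every array, the reference being RNA pooled from mouse cell lines and mixed with RNA of embryonic stem cells. The series title names potassium and chloride channels of eccrine sweat glands as its subject.

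The gene mutated in Tabby mice encodes ectodysplasin A, a ligand of the tumour necrosis factor family. Its receptor sits on the epithelium of early skin appendages, and the signal is needed in the mouse for several hair types and for the eccrine sweat glands, which in this species lie in the footpads. Gland buds form before birth, lengthen into ducts and coils in the days after it, and become able to secrete later, so that a mature gland is present in adult WT footpads and absent from adult Tabby footpads. The mutation is present in the whole animal from conception, and the tissue holds epidermis, dermis, vessels, nerve and fat beside any gland. In such bulk tissue, fewer cells of a type and less RNA per cell cannot be told apart.

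Probes are named here by the array's identifiers, since no table pairing them with genes was used. For the same reason the level of the mutated gene and of markers of gland or skin cells was not checked, and roles of single members are not given. The 60-base probe sequences of all 190 members were set against mouse promoter windows and miRNAs of RefSeq (GRCm38.p6), and 0 members shared 25 bases with either.

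Each stage was hybridised on a slide of its own, with WT arrays at positions 1 and 2 and Tabby arrays at positions 3 and 4 of every slide. Genotype and position, and likewise stage and slide, cannot be told apart. By the file headers, E17.5 arrays and adult arrays were each scanned on a day of their own, while P1, P3 and P5 arrays shared a scan day. Between 27195 and 30269 probes per array had a Cy3 signal well above background. Tabby E17.5 replicate 2 stood apart: its log ratios spanned a narrower range than those of its partner, with a slope of 0.747 between the 2 arrays against 0.939 to 1.02 in the other 9 groups, and 43 of its probe spots were marked as outliers against 1 to 11 on the other arrays. Counts and changes that rest on that array are given with and without it. The 2 adult Tabby arrays also differed more than most pairs, with a pooled replicate SD of 0.219 in log2 over all probes tested, against 0.129 for adult WT and 0.301 for Tabby E17.5. Over the members, the median replicate SD was 0.1559 in adult Tabby and 0.1535 in adult WT. It was 0.045 to 0.096 at P1, P3 and P5, and 0.173 in Tabby and 0.048 in WT at E17.5. The SEs and p-values below rest on 1 spread per probe shared by the 10 groups. In adults they can therefore understate the spread between replicates. At P1, P3 and P5, where the pooled replicate SD was 0.080 to 0.153, they can overstate it, which can lower the number of calls there.

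The sequences of 7 members are shown because the largest differences, the main courses over time and the repeated measurements rest on them. Capitals mark bases shared by the end of 1 probe and the start of the next, and sequences without capitals share no such run of at least 15 bases with another member.
Z00054396-1: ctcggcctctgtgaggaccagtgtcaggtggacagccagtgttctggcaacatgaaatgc
Z00022475-1: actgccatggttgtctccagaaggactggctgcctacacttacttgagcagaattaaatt
Z00047905-1: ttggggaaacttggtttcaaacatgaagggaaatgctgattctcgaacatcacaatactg
Z00075571-1: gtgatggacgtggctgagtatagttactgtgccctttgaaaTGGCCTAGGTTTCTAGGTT
Z00076827-1: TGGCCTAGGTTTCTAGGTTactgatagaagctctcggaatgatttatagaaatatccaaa
Z00074952-1: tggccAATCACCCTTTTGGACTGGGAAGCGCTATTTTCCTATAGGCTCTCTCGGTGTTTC
Z00024850-1: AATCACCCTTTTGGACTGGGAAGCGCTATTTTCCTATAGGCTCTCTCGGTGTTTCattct

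In adults, the 10 members with the largest differences were 8.85 to 19.2 times lower in Tabby than in WT footpads, on the scale used from here on (log2 of footpad over reference after normexp background correction and loess, called the log ratio). The members' adult difference ranged from -4.26 to 0.12 with a median of -1.55, beside a median of 0.02 over all 32124 probes tested. Of the 190 members, 155 fell by 2-fold or more, 52 of these by 4-fold or more and 13 by 8-fold or more. A total of 177 members were lower at an adjusted p under 0.05 (limma, Benjamini-Hochberg over all probes tested), where 4.33% of all probes tested were lower, and 0 were higher, where 1.83% of all probes tested were; the choice of members fixed this direction.

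Z00054396-1 had the largest adult difference on this scale, whereas by the scanner's log ratio 10 other members exceeded it, led by Z00025925-1 (-7.08, beside -4.61 for Z00054396-1). Its log ratio was -2.01 and -1.47 on the 2 adult Tabby arrays, against 2.80 and 2.24 on the 2 adult WT arrays. The 4 arrays separate by genotype with more than 3 log2 units between them, and the difference was -4.26 ± 0.29 (SE), or 19.2-fold lower in Tabby (limma adjusted p = 3.77e-07). At E17.5 the same probe was high in both genotypes, at 3.04 and 1.78 in Tabby and 3.15 and 3.06 in WT. At P5 it was low in both, at -0.58 and -0.72 in Tabby and -0.38 and -0.32 in WT, so the adult WT level lay between its P5 and embryonic levels while both adult Tabby arrays lay below all earlier Tabby arrays.

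Z00022475-1 was at -0.43 and -0.12 on the adult Tabby arrays, against 4.06 and 3.61 on the adult WT arrays. Its difference was -4.11 ± 0.22 (SE), 17.3-fold lower in Tabby (limma adjusted p = 2.51e-08), and 57.1-fold by the scanner's log ratio. Its Cy3 signal exceeded background clearly on 1 of the 2 adult Tabby arrays. At P5 both genotypes were near 0, at 0.02 and 0.14 in Tabby and 0.03 and 0.04 in WT, and from P5 to adult the level changed by -0.35 in Tabby and by 3.80 in WT.

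Z00075571-1 and Z00076827-1 overlap by 19 bases end to end and gave matching values. Z00075571-1 was at -1.36 and -0.84 in adult Tabby and at 3.02 and 2.78 in adult WT, a difference of -3.999 ± 0.142 (SE, limma adjusted p = 7.39e-10). Z00076827-1 was at -1.24 and -0.75 in adult Tabby and at 3.12 and 2.87 in adult WT, a difference of -3.995 ± 0.140 (SE, limma adjusted p = 6.86e-10). With the 4 adult arrays alone in the fit, the limma adjusted p was 0.00222 for each probe, and these 4 arrays also chose the members. Both probes were 15.95 and 15.99 times lower in adult Tabby, and both had an adult Tabby level more than 1 log2 unit under the Tabby level at P5.

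Z00060090-1 was at -0.32 and 0.13 in adult Tabby against 3.79 and 3.55 in adult WT, 13.6-fold lower in Tabby, while the scanner's log ratio gave a difference of -5.32 and the deposited table one of 65.3-fold. Its mean Tabby level did not move between P5 and adult (a change of -0.0012), whereas the WT level was 3.72 higher in adults than at P5. Z00025925-1 was not well above background on any array other than the 2 adult WT arrays. In adults it was therefore at least 11.5-fold lower in Tabby by Cy3 signal. For each adult Tabby array, this bound took the probe's own signal or the faintest Cy3 signal still well above background, whichever was larger. The log ratio of Z00025925-1 differed by -3.72 in adults (limma adjusted p = 2.46e-08). Of the remaining members among the 10 largest differences, Z00059045-1, Z00061755-1 and Z00058313-1 were 11.3-, 10.1- and 8.85-fold lower in adult Tabby footpads. Z00061755-1 was 16-fold lower by the scanner's log ratio. Z00058313-1 was 13.4-fold lower with the deposited table, 5.79-fold without Tabby adult replicate 1 and 13.5-fold without Tabby adult replicate 2.

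A lower adult Tabby level went with different courses. In 92 members the WT log ratio was at least 1 higher in adults than at P5 while the Tabby level had not fallen by 1. The medians of these 92 were -0.10 in adult Tabby and 1.70 in adult WT, and -0.20 in Tabby and -0.15 in WT at P5. In 41 members the Tabby log ratio was at least 1 lower in adults than at P5 without such a gain in WT, with medians of -0.39 in adult Tabby and 0.92 in adult WT, and of 1.03 in Tabby and 1.21 in WT at P5. Another 7 members met both conditions and 50 neither. By the scanner's log ratio 16 met both and 11 neither, with Cy3 alone 4 met both, 7 of the 119 members in the deposited table met neither by its values, and without Tabby adult replicate 1 only 1 met both. These arrays chose the members, each stage is a slide, and P5 and adult arrays were scanned on different days, so the counts carry no test. The same counts over all probes are not given, so the courses are not read as particular to the members.

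The gain in WT was largest in Z00058313-1, Z00076814-1 and Z00025925-1. Z00058313-1 was at 0.57 and 1.79 in adult Tabby, against 4.50 and 4.15 in adult WT, while at P5 it was at -0.39 and -0.45 in Tabby and -0.16 and -0.19 in WT. It was thus higher in adults than at P5 in both genotypes, by 1.59 in Tabby and by 4.50 in WT. Z00076814-1 showed the same order, with an adult minus P5 change of 1.65 in Tabby and 4.33 in WT, and it was 5.24-fold lower in adult Tabby than in adult WT. That fold was 2.92 by the scanner's log ratio (limma adjusted p = 0.0402) and 27.7 with Cy3 alone.

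The fall in Tabby was largest in Z00047905-1, Z00023641-1 and Z00071919-1. Z00047905-1 was at 1.08 and 1.26 in adult Tabby, against 4.77 and 4.85 in adult WT, and it was at 4.62 and 4.96 in Tabby and 4.31 and 4.51 in WT at P5. From P5 to adult its level changed by -3.62 in Tabby and by 0.39 in WT, and the adult level was 12.4-fold lower in Tabby (limma adjusted p = 0.00115), or 5.91-fold by the scanner's log ratio. The reference signal of this probe was well above background on 0 of the 20 arrays, so its ratio rests on the Cy3 signal.

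Z00023641-1 was lower in adults than at P5 in both genotypes, and further so in Tabby. It was at -2.71 and -2.57 in adult Tabby against -0.66 and -0.72 in adult WT, with changes from P5 of -3.32 in Tabby and -1.62 in WT. Z00071919-1 behaved alike with a smaller difference: it averaged 0.01 ± 0.03 (SD, n = 2) in adult Tabby, and was at 1.41 and 0.81 in adult WT. Its adult difference of -1.10 ± 0.29 (SE) had a limma adjusted p of 0.0417, and without WT adult replicate 1 the difference was -0.80 with an adjusted p of 0.345.

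The 13 members that were at least 8-fold lower in adult Tabby comprised 7 with a WT gain alone, 5 with both a WT gain and a Tabby fall, 1 (Z00047905-1) with a Tabby fall alone and 0 with neither. Of the same 13, 8 had both by the scanner's log ratio, 2 with Cy3 alone and 0 without Tabby adult replicate 1. Of these 13, 11 had a Cy3 signal well above background on both adult Tabby arrays.

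The word lost describes few members. On the adult Tabby arrays 146 of the 190 members had a signal well above background on both arrays, 20 on 1 and 24 on neither. All 190 had one on both adult WT arrays, where the choice required a processed signal of at least 100. For the 24 without adult Tabby signal the adult fold is a bound, at least 1.52-fold to at least 11.5-fold lower in Tabby with a median of at least 2.19-fold. Only 14 members were well above background on adult WT arrays and on no other array, and 25 were not above background on any of the 12 arrays of P1, P3 and P5. By contrast, 132 members were well above background on all 20 arrays, among them 124 of the 177 called in adults. On adult Tabby replicates 1 and 2, 164 and 148 members were well above background, beside 29865 and 27195 of the 42006 probes on the array. The choice required adult WT signal, so these counts are not read as particular to the members.

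The 2 adult replicates of each genotype were ordered alike over most members. Tabby replicate 1 lay below Tabby replicate 2 in 140 members (73.7%, against 51.5% of all probes tested), by a median of 0.17. WT replicate 1 lay above WT replicate 2 in 164 members (86.3%, against 45.6% of all probes tested), by a median of 0.20. The median log ratio of the members was -0.21 and -0.11 on the 2 adult Tabby arrays and 1.48 and 1.11 on the 2 adult WT arrays, against 0.01 to 0.12 on the 12 arrays of P1, P3 and P5.

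The choice of members did not use E17.5 or P1, so those stages can be tested. The choice did require adult WT signal, and some members had little signal at these stages. At E17.5, 31 members in Tabby and 27 in WT were well above background on neither array. At P1, 31 in Tabby and 31 in WT were. Such members could hardly show a difference there, yet they stay in the counts and medians below, which were not split by detection. At E17.5, 0 of 190 members passed an adjusted p of 0.05 in either direction (limma, smallest adjusted p 0.433), where 0.0125% of all probes tested were lower and 0% were higher. The members' median difference was -0.08, with all probes tested at -0.04. At an unadjusted p under 0.05, 26 members (13.7%) were lower and 7 (3.68%) higher in Tabby, beside 5.9% and 5.57% of all probes tested. Both Tabby arrays lay below both WT arrays in 49 members (25.8%, with 19.8% of all probes tested) and above both in 23 (12.1%, with 12.7%).

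These E17.5 counts rested on Tabby replicate 2. Without that array 0 members were lower and 0 higher at an unadjusted p under 0.05, with 0.685% and 0.735% of all probes tested, and the members' median difference was 0.00, with all probes tested at 0.01. The remaining Tabby array lay below both WT arrays in 68 of 189 members with a value (36%, with 29.4% of all probes tested) and above both in 72 (38.1%, with 35.2%). With replicate 2 as the only Tabby array, the members' median difference was -0.15. A fit with 1 array in a group assumes that this array varies like the other groups.

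At P1, 0 of 190 members passed the test in either direction, where 0.0342% of all probes tested were lower and 0% were higher. The 190 include the members, counted above, that were not well above background at P1. The members' median difference was -0.04, with all probes tested at 0.00, and 5 members (2.63%) were lower and 1 (0.526%) higher at an unadjusted p under 0.05, beside 2.42% and 1.86% of all probes tested. Both Tabby arrays lay below both WT arrays in 39 members (20.5%, with 16% of all probes tested) and above both in 21 (11.1%, with 17%). The difference between the 2 stages in the genotype difference passed the test in 0 members and in 0% of all probes tested; 8 members and 5.31% of all probes were past an unadjusted p of 0.05. Without Tabby E17.5 replicate 2 it passed in 0 members and 0% of all probes, and 1 member and 2.3% of all probes were past an unadjusted p of 0.05.

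The member with the smallest adjusted p at P1 was Z00054712-1, named after its values were seen. It was at 0.59 and 0.54 in P1 Tabby, against 1.29 and 0.89 in P1 WT, so the 4 arrays separate by genotype. The difference was -0.53 ± 0.12 (SE, limma adjusted p = 0.37), and without WT P1 replicate 2 it was -0.73 ± 0.11 (SE, limma adjusted p = 0.0175). In adults this probe was at 1.43 and 1.42 in Tabby and at 3.09 and 3.08 in WT.

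At P3 and P5, where the choice kept differences above -0.5, 0 members were called lower or higher at either stage (limma). Lower calls were made for 0.221% of all probes tested at P3 and 0.573% at P5, and higher calls for 0.0156% and 0.056%. The members' median differences there were -0.08 and -0.07, and nothing is read from them.

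Some members were lower at P1 than at E17.5 in both genotypes. From E17.5 to P1, 19 members in Tabby and 20 in WT fell at least 2-fold at an adjusted p under 0.05 (limma), 10% and 10.5% of members, where 5.36% and 6.66% of all probes tested did so. The same 18 members did so in both genotypes. With members well above background on both E17.5 arrays alone, the counts were 17 of 155 in Tabby and 18 of 157 in WT, or 11% and 11.5%, beside 5.63% and 7.13% of all such probes. Rises of at least 2-fold were called for 11 members in Tabby and 10 in WT (5.79% and 5.26%, where 6.44% and 6.1% of all probes tested rose), 8 of them shared. Without Tabby E17.5 replicate 2, 22 members fell in Tabby (11.6%, with 6.27% of all probes tested) and 7 rose (3.68%, with 5.36%), of which 20 and 7 did so in WT too. Among the 156 members well above background on the remaining Tabby E17.5 array, 20 fell (12.8%, with 6.7% of all such probes). Each stage was hybridised on a slide of its own, and E17.5 and P1 arrays were scanned on different days. These changes cannot be told apart from differences between slides or scan days.

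Z00054396-1 fell by 3.34 ± 0.29 in Tabby (limma adjusted p = 5.08e-07) and by 3.83 ± 0.29 in WT (SE, limma adjusted p = 1.24e-07) between E17.5 and P1, and without Tabby E17.5 replicate 2 the Tabby change was -3.97 ± 0.20. Z00059045-1 and Z00051811-1 also fell at this step in both genotypes, and both were at least 8-fold lower in adult Tabby. Z00059045-1 was at 4.00 and 2.25 in Tabby and 3.71 and 3.81 in WT at E17.5, so that only Tabby replicate 2 lay below WT. It averaged 0.66 in Tabby and 1.06 in WT at P5, and -0.61 in Tabby and 2.89 in WT in adults. Z00051811-1 was at 1.67 and 0.56 in Tabby and 1.82 and 1.73 in WT at E17.5, and Tabby replicate 1 lay close to WT. It averaged -0.57 in Tabby and -0.33 in WT at P5, and -1.09 in Tabby and 1.97 in WT in adults. In both probes the adult WT level lay well above the P5 level, and the adult Tabby level lay under it.

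The steepest drop at birth belonged to Z00025439-1, which fell by 4.69 ± 0.24 in Tabby and fell by 5.33 ± 0.24 in WT (SE). Without Tabby E17.5 replicate 2 it fell by 5.18 ± 0.18 in Tabby. In adults it stayed low in both, at -4.18 and -3.52 in Tabby and -3.70 and -3.69 in WT, and the arrays overlap. This probe was a member by the scanner's log ratio, with a difference of -1.54, yet its difference after normexp and loess was -0.16 ± 0.24 (SE, limma adjusted p = 0.80).

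Z00025439-1 was 1 of 13 members whose adult difference did not pass the test on the normexp and loess scale. In 8 of these 13 the reference signal was well above background on at most 4 of the 20 arrays, as it was in 31 of all 190 members. Z00063954-1 was the only member with a positive value there, at 3.87 and 4.27 in adult Tabby and 3.90 and 4.00 in adult WT, a difference of 0.12 ± 0.41 (SE) against -1.58 by the scanner's log ratio. Selecting on the normexp and loess differences in place of the scanner's gave 131 probes, 98 of them among the 190.

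Some members share sequence, so the 190 are not all separate measurements, and members that share sequence gave like values. Z00024850-1 and Z00074952-1 share 55 bases. Z00024850-1 was at -1.33 and -1.21 in adult Tabby and 0.05 and -0.15 in adult WT, and Z00074952-1 was at -1.30 and -1.12 in adult Tabby and 0.10 and -0.08 in adult WT. Both were 2.33-fold lower in Tabby, with limma adjusted p-values of 0.000411 and 0.000345. Z00060202-1 and Z00075475-1 share 35 bases and were 3.86- and 4.31-fold lower, and Z00052265-1 and Z00074530-1 share 30 bases and were 4.74- and 5.07-fold lower. Z00043941-1 shares at least 30 bases with Z00056188-1, which is not a member: its difference by the scanner's log ratio was -1.43, beside -1.85 for Z00043941-1.

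The median GC content was 43.3% in members and 43.3% in all other probes. The motif AATAAA, the common polyadenylation signal, read on the probe's strand alone, was in 15 members (7.9%) and in 6.93% of all other probes of the array.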

How the data were processed

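Footpad RNA of 20 samples, 2 for each of 10 groups, was measured on two-colour arrays. Per the file headers, the scanner software was Agilent Feature Extraction 9.5.1.1. The deposited files give the mean signal and local background of each dye as an intensity, processed signals as an intensity, and a log10 ratio of reference over footpad. The authors' deposited value table, with 25030 probes and 119 of the 190 members, is on a log10 scale. Its column medians were 2.53 to 2.59. Set against the array files, 64.3% of its probes equalled footpad over reference plus a constant within 0.001. Direction and scale are thus settled, the centring is a constant per probe for these, and what was done to the other probes was not tested. Genotype, stage and replicate came from the labels.

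Mean signals were corrected with normexp (offset 50) and loess (limma 3.58.1, R 4.3.3), control and outlier spots having no weight, outlier spots were left out, and replicate spots were averaged, giving log2 of footpad over reference. Probes well above background in Cy3 on at least 2 arrays were kept, and 32124 were tested, all 190 members among them. A fit with 10 group coefficients over 20 arrays had 10 residual degrees of freedom. Tests were two-sided, and SEs of differences are limma's moderated ones. Checks on simulated data used the same code. The number of arrays limits the precision. Where a group had 0 arrays well above background, folds are bounds from Cy3 signals after Aquantile normalization, open to dye bias.

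The members, lists and comparisons were chosen with earlier results of these data known. Named probes are the 10 largest adult differences, the 3 largest WT gains and the 3 largest Tabby falls from P5, the 3 members and the 3 other probes nearest the adult limit, members sharing at least 30 bases, and members called at E17.5 or P1 (0). Other probes were named after their values were seen. Gene lists were not used, since no gene names were at hand. Alternatives covered background correction, scanner signals, scaling, Cy3 alone, the deposited table, the dim-probe filter, single-stage fits, array weights, a replicate block, arrays left out in turn and the limits of the choice. The main fit did not pair arrays by replicate number. The deviations of same-numbered arrays correlated at 0.0911, 0.0397, -0.0723, 0.131 and 0.224 from E17.5 to adult, across probes. Such correlations cannot show whether same-numbered samples were paired.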

Additional observations from a re-analysis of the deposited data

Results flagged for a closer look

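In 3 named members both Tabby arrays lay above both WT arrays at a stage before P3, and below both in adults. The change of direction between the stages was not tested in any of the 3. At P1, Z00022475-1 was at 1.23 and 1.39 in Tabby and at 1.15 and 0.63 in WT, a difference of 0.42. At P1, Z00071919-1 was at 1.75 and 1.62 in Tabby and at 1.52 and 1.58 in WT, a difference of 0.14. At E17.5, Z00060090-1 was at -0.35 and -0.07 in Tabby and at -0.39 and -0.37 in WT, a difference of 0.17. The E17.5 difference includes Tabby replicate 2, the array that stood apart. With 2 arrays a group, arrays that separate upwards at P1 were found in 21 members (11.1%) and in 17% of all probes tested.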

How the results depend on the processing

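Over 29 alternatives, arrays left out included, the adult differences of the 22 named members gave 630 values, of which 608 kept direction and call, 22 kept the direction and lost the call, and 0 reversed. Z00071919-1 lost it 20 times (adjusted p 0.0521 to 0.345), Z00024172-1 with arrays brought to 1 scale (0.386) and Z00047589-1 with the 4 arrays of its stage alone (0.053). The choice of members on these adult arrays fixed the direction, and settings that changed only the spread left the differences themselves unchanged. The 0 reversals and the kept calls are thus no independent check. The cause of the lost calls was not tested, nor that of the changes in counts below. The choice of members gave 267 and 135 probes with the adult limit 0.25 higher and lower, 215 and 158 with signal minimums of 50 and 200, and 131 with normexp and loess differences.

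Members called at E17.5 stayed at 0 in every setting but arrays left out in turn (0 to 68, the 68 without Tabby E17.5 replicate 1). At P1 there was 1 with Cy3 alone, 1 with the deposited table and 0 to 1 with arrays left out (1 without WT P1 replicate 2). Array weights gave both arrays of a group the same weight, 0.203 each for Tabby E17.5, so that setting could not set replicate 2 apart. At P3 there were 5 members with Cy3 alone (beside 715 of all probes) and 2 with the deposited table (beside 287). There was 1 with the 4 arrays of the stage (beside 309), and there were 25 with array weights (beside 3234). At P5 there was 1 without background subtraction (beside 382 of all probes), and there were 3 with Cy3 alone (beside 445). The deposited table gave 2 (beside 305), the 4 arrays of the stage 11 (beside 836) and array weights 22 (beside 2480). Counts over all probes for the other stages are in the next paragraph. In adults arrays left out gave 151 to 182.

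Over all probes, calls at E17.5 (4) became 7 without background subtraction, 12 with the scanner's processed signals, 7 with Cy3 alone, 21 with the deposited table, 0 with the 4 arrays of the stage, 1 with array weights and 2 to 8195 with arrays left out (2 without Tabby replicate 2, 7 without WT replicate 1 and 8195 without Tabby replicate 1). Calls at P1 (11) became 60, 20, 122 and 113 with no background subtraction, processed signals, Cy3 alone and the deposited table, and 7 to 90 with arrays left out. Calls at P3 (76) became 387, 116, 715 and 287 with the same 4 settings, 309 with the 4 arrays of the stage, 3234 with array weights and 24 to 198 with arrays left out. Calls at P5 (202) became 382, 445 and 305 without background subtraction, with Cy3 alone and with the deposited table, 836 with the 4 arrays of the stage, 2480 with array weights and 125 to 314 with arrays left out. Adult calls (1977) became 3796 without background subtraction, 807 with arrays on 1 scale, 3456 with Cy3 alone, 385 with the 4 arrays of the stage, 823 with array weights and 806 to 4323 with arrays left out (806 without WT replicate 1, 4323 without Tabby replicate 2).

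With the replicate block, 178 members were called in adults, beside 1512 of all probes (1977 in the main fit). From E17.5 to P5 this setting called 0 members. Over all probes, E17.5 then had 3 calls, P1 had 5, P3 had 50 and P5 had 169. In the courses, processed signals gave 74 members with a Tabby fall (48 in all), 16 with both and 11 with neither, Cy3 alone gave 4 with both, with the deposited table, neither held for 7, and arrays left out gave 1 to 10 with both (1 without Tabby adult replicate 1). Leaving out arrays of other stages, the courses with an array left out, the split of the 13 members, and the birth step and the difference between stages without Tabby E17.5 replicate 2 were chosen after seeing the data.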
